A study of Mus musculus with 24 samples.

Results

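The 9 genes described here are Alad, 7 other enzymes of haem synthesis (Alas1, Alas2, Uros, Urod, Cpox, Ppox and Fech) and the haem-binding protein Hebp1. They were chosen by gene symbol: every probe set that the platform annotation gives to one of these symbols was taken, which found 15 probe sets among the 22690 on the array. Of these, 13 had a mean signal high enough to be tested and represented all 9 genes. The others, Fech 1427696_at (median signal 18.75) and Ppox 1448065_at (median signal 72.15), fell below the mean signal of 169.3 required and are given only as ranges.

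RNA of whole lung was hybridised to 24 Affymetrix Mouse 430A arrays, 2 for each of 12 groups of untreated male mice aged 8 weeks from the Jackson Laboratory. The groups were the inbred progenitors B6 and C3, their hybrid BXHF1 (called F1 here), and the 9 recombinant inbred (RI) strains BXH2, BXH4, BXH6, BXH7, BXH8, BXH9, BXH10, BXH14 and BXH19. An RI strain is an inbred line that is homozygous, at nearly every locus, for the allele of one or the other progenitor, in a mosaic that differs from strain to strain. Each array is labelled as 1 lung sample, and 2 sets of lungs were taken per strain. Each p-value thus sets a difference between strains against the spread of such samples within strains. The labels name no engineered allele, batch or date.

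The arrays were alike in overall signal, with medians between 239 and 269.6. Pairs of arrays from 1 strain correlated at 0.948 to 0.973 over the tested probe sets, and arrays from different strains at 0.902 to 0.966. Lung markers were bright in every sample, with Sftpc, a surfactant protein of alveolar type 2 cells, at 9579.1 to 20160.1 and Scgb1a1, the club cell secretory protein, at 11222.9 to 18168. Skeletal muscle genes varied widely between the samples, with a summed signal of 2082.5 to 47166.6 over 15 probe sets, the lowest on a BXH19 array and the highest on a BXH9 array.

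Haem is built in a chain of enzymatic steps that begins and ends in the mitochondrion and passes through the cytosol between. The first step, which makes 5-aminolaevulinic acid, limits the rate and is run by Alas1 in all tissues and by Alas2 in red cell precursors. Alad, a cytosolic enzyme that needs zinc and is inhibited by lead, joins a pair of these molecules into porphobilinogen. Uros and Urod shape the porphyrin ring, Cpox and Ppox oxidise it, and Fech inserts iron. Hebp1 is a small cytosolic protein that binds haem and porphyrins and is the source of a chemoattractant peptide.

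Alad and Hebp1 had higher signals in C3 than in B6 lung, and no other enzyme of the chain passed the test for that difference. Among the RI strains, Alad took levels near 1 progenitor or the other in 8 of 9 strains and a level between them in BXH4. Hebp1 also differed among the RI strains, but with another order of strains and with levels below both progenitors in BXH4 and BXH10. Alas2 and a Fech probe set differed among the RI strains by less, in step with the mean of a list of red cell genes.

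A signal here is the deposited linear intensity of a probe set, and differences are on the scale of log2(signal + 16), which understates changes of dim probe sets. Tests were limma's moderated tests across all 13576 tested probe sets with Benjamini-Hochberg adjustment, called below 0.05. In C3 against B6, 2 of the 13 member probe sets were called, both higher in C3, where 1.73% of all tested probe sets were called and 0.781% were called as higher. The differences of Alad and Hebp1 between the progenitors were known when the members were chosen, so they are given as descriptions and nothing is read from that count.

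**Figure D1:**
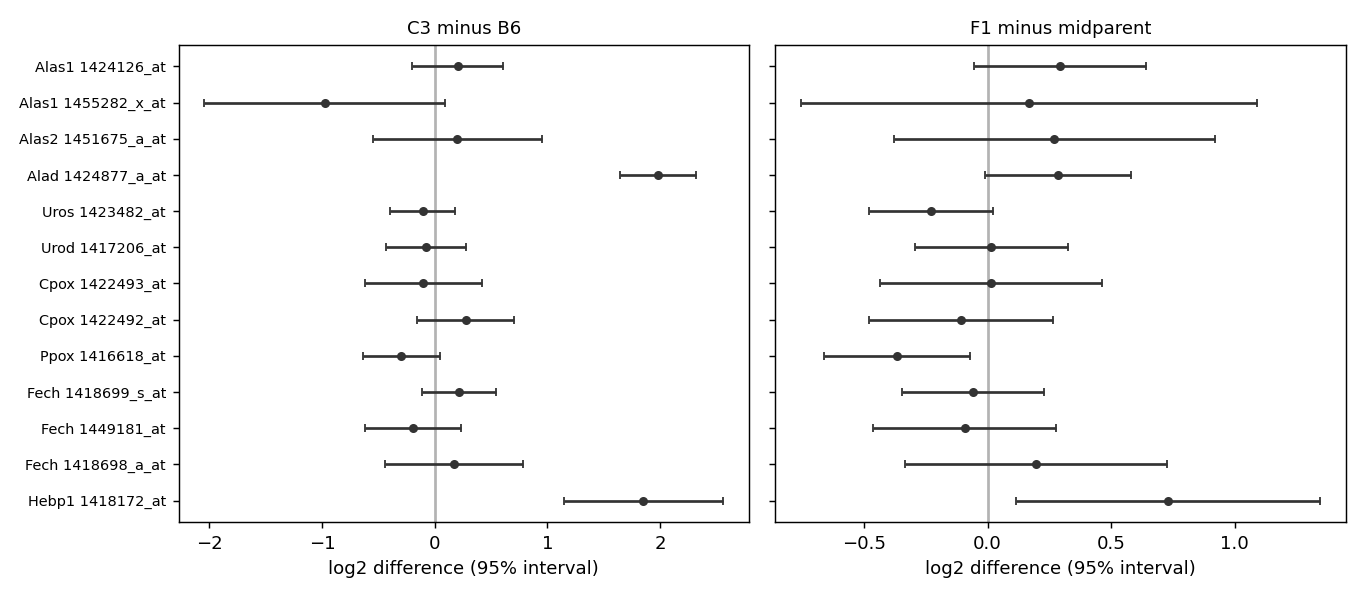
Differences of the 13 tested member probe sets on the log2(signal + 16) scale, C3 minus B6 at left and F1 minus the mean of the progenitors at right; points are estimates from 2 arrays per strain and bars are 95% intervals. At left, Alad (1.98) and Hebp1 (1.85) lie to the right of zero, and the intervals of the other 11 include zero; at right, only the intervals of Ppox and Hebp1 exclude zero before adjustment.

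Alas1, the housekeeping form of the first enzyme, gave signals of 2035.5 and 2508.8 in B6 on its brighter probe set, 1424126_at. The C3 arrays read 2698.2 and 2521.7, and those of F1 read 2591.2 and 3421.1. Every C3 array was above both B6 arrays, by little. The difference of C3 minus B6 was 0.21 (95% interval -0.20 to 0.61, limma adjusted p = 0.909), and that of F1 minus the progenitor mean was 0.29 (adjusted p = 0.727). The RI arrays ran from 2316 in BXH7 to 4280.7 in BXH4, and the strains did not pass the test among themselves (range of strain means 0.58, adjusted p = 0.322).

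Averaged over the 9 RI strains, Alas1 1424126_at was higher than the progenitor mean by 0.52 (SE 0.11, 95% interval 0.30 to 0.74, limma adjusted p = 0.0197), with mean signals of 3527.41 and 2441.05. This comparison was added after the data were seen, and 1.32% of all tested probe sets passed it. Alas1 was the only member probe set of 13 to do so. The call ended without B6 replicate 1 (0.44, adjusted p = 0.142), without B6 replicate 2 (adjusted p = 0.0502), without C3 replicate 2 (adjusted p = 0.117), and with the mean of both Alas1 probe sets (0.45, adjusted p = 0.0978). Genes of the circadian clock were also brighter in most RI strains than in the progenitors. Their summed signal over 16 probe sets was 6405.9 to 6595.9 in B6, 8334 to 9456.3 in C3 and 6641.6 to 7495.9 in F1. In the RI arrays it ran from 9360.6 in BXH7 to 20634.5 in BXH10. B6, C3, F1 and BXH7 had the lowest log2 means of Alas1 1424126_at and also the lowest clock sums. BXH4, BXH8, BXH10 and BXH14 had the highest Alas1 means, with clock sums of 15305.4 or more. The order was not the same throughout. F1 was below C3 in this sum but above it in mean Alas1 signal (3006.15 against 2609.95), with overlapping Alas1 arrays. Of 12 tested clock genes, 4 were higher in C3 than in B6, where 0.781% of all tested probe sets were, and 7 differed among the RI strains, where 9.06% did. The part of the clock genes in the Alas1 result was not tested.

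The second Alas1 probe set, 1455282_x_at, was dimmer and uneven between arrays of 1 strain, with 766.6 and 185.8 in BXH7. Its name ends in _x_at, which marks probes that can also match other transcripts. Its C3 minus B6 difference was -0.98 (95% interval -2.04 to 0.09, limma adjusted p = 0.633), opposite in sign to the other Alas1 probe set. Its RI range of 1.81 had an adjusted p of 0.173, and of 0.0253 without BXH7 replicate 2.

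Alad stood apart from the rest of the chain in its progenitor difference, and the start of its gene is printed here beside those of Hdhd3, the gene next to it, and of Hebp1 and Alas2, the other members whose strains are described in most detail. Each is the 250 bases before the most upstream RefSeq start in GRCm38.p6, written along the gene. Capitals mark matches on either strand to CACGTG, the E-box bound by clock and other basic helix-loop-helix factors, to GGGCGG, the GC box bound by Sp factors, and to AGATAA, which red cell transcription factors of the zinc-finger class bind. The Alad window is chr4:62520064-62520313 on the minus strand, that of Hdhd3 is chr4:62502201-62502450 on the minus strand, that of Hebp1 is chr6:135168216-135168465 on the minus strand, and that of Alas2 is chrX:150547167-150547416 on the plus strand.
Alad: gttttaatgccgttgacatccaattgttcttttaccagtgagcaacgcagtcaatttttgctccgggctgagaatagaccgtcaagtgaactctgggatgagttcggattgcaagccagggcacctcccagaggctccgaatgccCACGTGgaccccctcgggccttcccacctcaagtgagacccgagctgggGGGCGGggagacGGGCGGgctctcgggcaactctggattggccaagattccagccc
Hdhd3: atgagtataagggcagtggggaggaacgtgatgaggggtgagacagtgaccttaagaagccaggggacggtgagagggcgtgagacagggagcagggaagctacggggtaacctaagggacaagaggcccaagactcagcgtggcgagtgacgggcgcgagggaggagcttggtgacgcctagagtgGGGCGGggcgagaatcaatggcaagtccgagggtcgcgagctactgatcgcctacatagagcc
Hebp1: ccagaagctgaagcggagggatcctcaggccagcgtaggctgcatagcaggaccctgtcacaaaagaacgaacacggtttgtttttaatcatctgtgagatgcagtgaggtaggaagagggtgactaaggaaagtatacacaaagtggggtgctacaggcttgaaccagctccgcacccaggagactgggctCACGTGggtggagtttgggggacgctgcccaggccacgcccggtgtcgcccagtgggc
Alas2: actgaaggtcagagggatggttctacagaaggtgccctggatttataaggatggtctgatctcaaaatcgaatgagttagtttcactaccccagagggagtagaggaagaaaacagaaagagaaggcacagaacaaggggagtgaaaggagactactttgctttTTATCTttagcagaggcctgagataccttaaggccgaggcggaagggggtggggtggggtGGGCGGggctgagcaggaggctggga
The Alad window held 1 CACGTG and 2 GGGCGG, that of Hdhd3 held 1 GGGCGG, that of Hebp1 held 1 CACGTG, and that of Alas2 held 1 AGATAA, read as TTATCT, and 1 GGGCGG. Of the 8 members with a window (all but Fech), 4 held CACGTG, 5 held GGGCGG and 1 held AGATAA. Over all 32851 RefSeq windows of the same length, 6.02% held CACGTG, 32.74% held GGGCGG and 9.99% held AGATAA. Unlike those of the members, these windows were not limited to the most upstream start of each gene. The reference is that of C57BL/6J, so it shows no C3 allele, and a match describes letters only.

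The Alad signal was 337 and 399.3 in B6 and 1370.3 and 1629.9 in C3. Both C3 arrays were thus more than 3 times as bright as either B6 array. The difference of C3 minus B6 was 1.98 (SE 0.16, 95% interval 1.64 to 2.32), with mean signals of 1500.1 ± 183.56 in C3 and 368.15 ± 44.05 in B6 (SD, n = 2 each). Alveolar macrophage genes were also brighter in C3, with a summed signal over 12 probe sets of 15726.8 to 16932.8 there and 11286.4 to 12603.4 in B6. Of 10 tested, 2 were called higher in C3 (Krt79 and Ccl6), where 0.781% of all tested probe sets were. In the RI strains that sum was lowest in BXH10 (9482.4 to 11501), and it was 18279.6 to 18472.1 in BXH19, the strain with the least Alad. The part of these genes in the Alad and Hebp1 differences was not tested.

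In the hybrid, Alad read 891.6 and 930.8, between the progenitors on both arrays. Its mean of 911.2 ± 27.72 (SD, n = 2) was close to the linear mean of the progenitors, 934.12. On the log2 scale F1 exceeded the progenitor mean by 0.29 (95% interval -0.01 to 0.58, limma adjusted p = 0.673). F1 was above B6 by 1.28 (95% interval 0.94 to 1.62) and its difference from C3 was -0.70 (95% interval -1.04 to -0.36).

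Among the RI strains Alad differed with a range of strain means of 2.17 (limma moderated F = 59.9, adjusted p = 1.38e-08), where 9.06% of all tested probe sets passed. BXH6 was the highest with 1676.5 and 1571.8. BXH2 read 1416.6 and 1632.3, BXH8 read 1495 and 1483.7, BXH9 read 1566.8 and 1385.5, and BXH7 read 1328.3 and 1454.3. These 5 strains lay on both sides of C3, with overlapping arrays.

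BXH10 read 499.4 and 433.4, BXH14 read 444.6 and 447.1, and BXH19 read 407.9 and 296.2. BXH19 overlapped B6, while BXH10 and BXH14 were above both B6 arrays, by 0.33 (95% interval -0.01 to 0.67) and 0.27 (95% interval -0.07 to 0.61). BXH4 read 1000.1 and 758.3, around the F1 arrays and apart from both progenitors. Its difference was 1.21 from B6 (95% interval 0.87 to 1.55) and -0.77 from C3 (95% interval -1.11 to -0.43).

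In rising order of the strain means, Alad ran BXH19, B6, BXH14, BXH10, BXH4, F1, BXH7, BXH9, BXH8, C3, BXH2 and BXH6. Neighbours in this order had arrays that did not overlap at 3 places: between B6 and BXH14 (0.27), between BXH10 and BXH4 (0.88) and between F1 and BXH7 (0.60). On a scale of 0 at B6 and 1 at C3, BXH4 lay at 0.61 and F1 at 0.64. The other RI strains lay from -0.04 (BXH19) to 0.17 (BXH10) or from 0.95 (BXH7) to 1.06 (BXH6).

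Each RI strain was also set against the mean of the other 8, where Alad passed in all but BXH4. It was higher in BXH2 by 0.80 (adjusted p = 0.0017), in BXH6 by 0.90 (adjusted p = 2.54e-04), in BXH7 by 0.65 (adjusted p = 0.00686), in BXH8 by 0.77 (adjusted p = 0.00206) and in BXH9 by 0.75 (adjusted p = 0.00174), by limma. It was lower in BXH10 (-1.09, adjusted p = 3.51e-05), BXH14 (-1.15, adjusted p = 1.82e-05) and BXH19 (-1.54, adjusted p = 5.77e-07), with an SE of 0.12 throughout. Of all tested probe sets, 1.27% passed in BXH2, 8.18% in BXH4, 1.69% in BXH6, 1.3% in BXH7, 1.23% in BXH8, 2.37% in BXH9, 1.25% in BXH10, 1.38% in BXH14 and 1.31% in BXH19. The members passed only through Alad and Hebp1, with 13 calls in all.

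**Figure D2:**
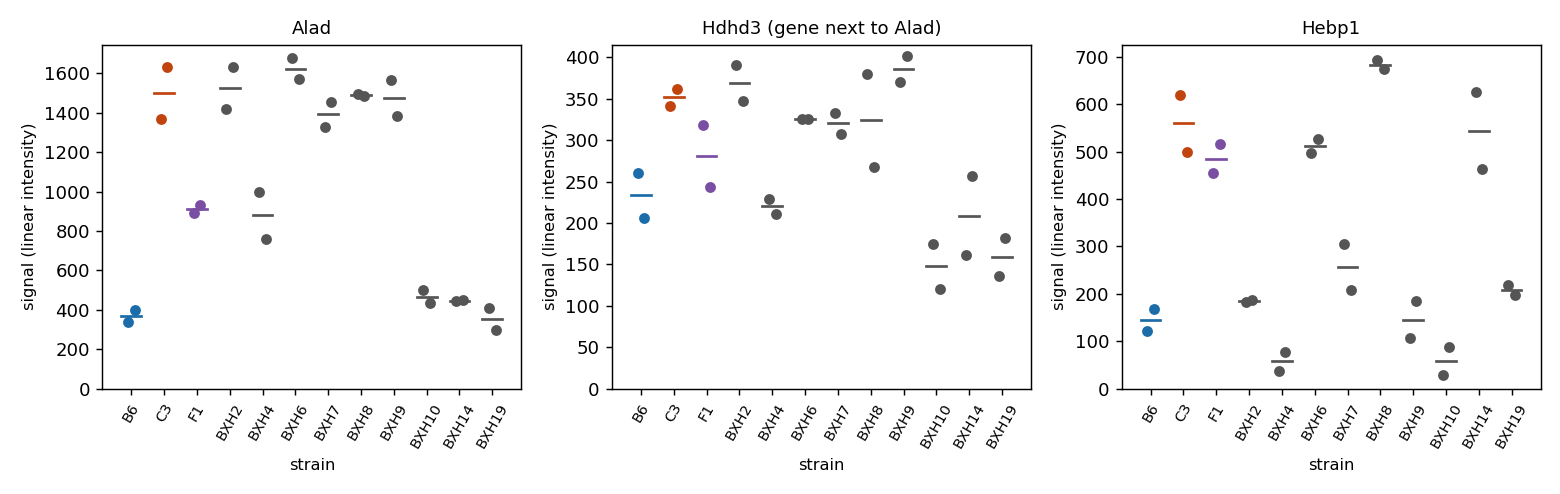
Signal (linear intensity) of Alad, of its neighbour Hdhd3 and of Hebp1 on each of the 24 arrays; points are arrays, lines are strain means of 2 arrays, with B6 in blue, C3 in red, F1 in purple and RI strains in grey. Alad is near the B6 level in BXH10, BXH14 and BXH19 and near the C3 level in BXH2, BXH6, BXH7, BXH8 and BXH9, while Hebp1 follows another order, with BXH14 high and BXH4 and BXH10 lowest.

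Of the 20 genes within 10 places of Alad in the RefSeq gene order, 8 had a tested probe set and only Hdhd3, a haloacid dehalogenase-like protein in the next place, differed among the RI strains. Its range was 1.31 (limma adjusted p = 0.00198), with strain means from 147.75 ± 37.97 in BXH10 to 386.05 ± 21.85 in BXH9 (SD, n = 2). Hdhd3 read 260.1 and 206.6 in B6 and 341.5 and 362 in C3. That difference of 0.57 (SE 0.23) did not pass (adjusted p = 0.391). In BXH4, Hdhd3 read 229 and 211.5, overlapping B6, where Alad read between the progenitors. The other 7 tested neighbours (Slc31a2, Fkbp15, Slc31a1, Cdc26, Bspry, Pole3 and Rgs3) had adjusted p from 0.127 to 0.793 among the RI strains.

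Over the 9 RI strain means, Hdhd3 was also the gene most like Alad of 8278 compared (Pearson r = 0.94), followed by Aprt (0.93), Ubxn6 (0.91), Chchd10 (0.91) and Slc1a1 (0.89). These points share strains and arrays. Apart from Hdhd3, none of the 5 passed among the RI strains, with ranges of 0.22 to 0.51.

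Uros, which closes the porphyrin ring, varied little. The B6 arrays read 619.6 and 628.3, the C3 arrays 553.1 and 603.8, and the F1 arrays 593.3 and 438.2. The RI arrays ran from 461.1 to 662.7. C3 minus B6 was -0.11 (95% interval -0.40 to 0.18, limma adjusted p = 0.965), and the RI range was 0.38 (adjusted p = 0.491). Urod, which removes carboxyl groups from the ring, read 382 and 439 in B6 and 390.9 and 384.1 in C3, with a difference of -0.08 (95% interval -0.43 to 0.28, adjusted p = 0.988). Its RI arrays ran from 321.4 to 521.1, a range of strain means of 0.39 (adjusted p = 0.748).

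Cpox, the first oxidase of the late chain, had a pair of tested probe sets and no difference that passed on either. Cpox 1422493_at read 303 and 246.4 in B6 and 274.3 and 233.9 in C3, a difference of -0.10 (95% interval -0.62 to 0.42, limma adjusted p = 0.988). Cpox 1422492_at differed by 0.28 (95% interval -0.15 to 0.71, adjusted p = 0.836). The RI range of 1422493_at was 0.85 (adjusted p = 0.252), with 263.3 and 539.8 in BXH10. Without BXH10 replicate 1 that range was 1.34 and passed (adjusted p = 0.0231).

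Ppox, the oxidase that makes protoporphyrin, read 405 and 384.5 in B6 on probe set 1416618_at. It read 320.8 and 315.2 in C3, against 277.1 and 265 in F1. Both F1 arrays were below all 4 progenitor arrays. F1 minus the progenitor mean was -0.37 (95% interval -0.66 to -0.07, unadjusted p = 0.0178 by limma), and the adjusted p was 0.558. C3 minus B6 was -0.30 (95% interval -0.64 to 0.04, adjusted p = 0.669), and the RI range was 0.50 (adjusted p = 0.308). The untested Ppox 1448065_at read 40.6 to 132.5.

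For F1 against the progenitor mean, limma called 0 of the 13 member probe sets, where 0.103% of all tested probe sets were called. At an unadjusted p below 0.05 there were 2, Ppox 1416618_at and Hebp1. The median difference over the 13 was 0.01, and over all tested probe sets it was -0.01.

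The upper bounds of the 95% intervals of C3 minus B6 reached at most 0.95 over the 11 probe sets other than those of Alad and Hebp1. The lower bound for Alad was 1.64. On the other side, the lower bounds of these 11 were no lower than -0.64 except that of Alas1 1455282_x_at, at -2.04, so a fall as large as the Alad difference lies within its interval. The adjusted p of those 11 ran from 0.633 to 0.988.

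Alas2, the first enzyme in red cell precursors, and Fech, which completes haem, both differed among the RI strains, with BXH7 lowest in each. Alas2 read 3834.5 and 4244.8 in BXH8, 3369.5 and 3639.8 in BXH10, 2665.9 and 3918.7 in BXH2, and 1534.7 and 1053.4 in BXH7. BXH8 was above every array of the other RI strains except BXH2 replicate 2. The arrays of the other RI strains were between 1217.8 and 3049.2, and pairs from 1 strain differed by up to 1.09 on the log2 scale (BXH9). The range of strain means was 1.65 (limma moderated F = 4.67, adjusted p = 0.0403).

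Fech 1418699_s_at read 2346.6 and 2289.7 in BXH2, 2197.5 and 2310.5 in BXH8, 2302.2 and 1974.6 in BXH10, and 1420.2 and 1316.2 in BXH7. BXH2, BXH8 and BXH10 lay above all arrays of the other strains. The range was 0.75 (limma moderated F = 5.32, adjusted p = 0.0249). Its other tested probe sets, 1418698_a_at (range 0.97, adjusted p = 0.156) and 1449181_at (range 0.73, adjusted p = 0.306), also had BXH7 lowest and did not pass. The untested Fech 1427696_at read 11.4 to 49.5. With these, 4 of the 13 member probe sets passed among the RI strains (Alad, Hebp1, Alas2 and Fech 1418699_s_at), where 9.06% of all tested probe sets passed. The members were chosen with earlier results of these data known, so nothing is read from this count.

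Neither gene separated the progenitors. Alas2 read 1987.4 and 2246 in B6 and 2787.6 and 2112.4 in C3, with overlapping arrays and a difference of 0.20 (95% interval -0.55 to 0.95, limma adjusted p = 0.98). Fech 1418699_s_at read 1362.8 and 1769.8 in B6 and 1779.6 and 1835.1 in C3, a difference of 0.22 (95% interval -0.12 to 0.55, adjusted p = 0.828). Its other probe sets gave 0.17 (1418698_a_at) and -0.19 (1449181_at).

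The summed signal of red cell genes moved with both, though not every gene of the list did. Over 19 erythroid probe sets the summed signal was 2879.3 to 3205.7 in BXH7, 5341.4 to 5684.6 in BXH8, 4548.9 to 4700.7 in BXH2 and 4485.1 to 5553.2 in BXH10. It was 3975.2 to 4008.2 in B6 and 3674.7 to 4076.3 in C3. Of the 9 tested genes, Slc4a1, the red cell anion exchanger, passed among the RI strains with a range of 2.32 (limma adjusted p = 0.00576). Bpgm, which makes 2,3-bisphosphoglycerate, and Trim10 passed as well, with 1.27 (adjusted p = 0.0134) and 1.06 (adjusted p = 0.0437). Sptb, another listed gene, went another way. Its mean signal was 262.4 in BXH7, the highest of any strain, and 184.75 in BXH10, the lowest of any RI strain. Gata1 also had a higher mean signal in BXH7 (154.15) than in BXH8 (133.65), BXH2 (123.45) or BXH10 (152.1). Klf1 and Ermap were lower in BXH2 (111.1 and 86.9) than in BXH7 (114.45 and 117.25), though higher in BXH8 and BXH10. No erythroid marker was at 0 on all arrays, but the membrane protein gene Epb42 stayed between 6.4 and 20.6.

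Over the 24 arrays, the mean of the 9 tested erythroid genes correlated with Alas2 at r = 0.82 and with Fech 1418699_s_at at r = 0.89, against 0.10 for Alad, 0.05 for Alas1 1424126_at and 0.0036 for Hebp1. These points share strains and are a description. With that mean as a covariate, an alternative added after the data were seen, the range was 0.45 for Alas2 (limma adjusted p = 0.946) and 0.26 for Fech 1418699_s_at (adjusted p = 0.916). In these bulk samples fewer cells of a type and less RNA per cell cannot be told apart. Skeletal muscle genes also differed between these strains, with summed signals of 2299.6 to 2792 in BXH7, 27892.1 to 34382.4 in BXH8, 26472.8 to 30176.3 in BXH2 and 2692.8 to 13294.1 in BXH10. Adipose genes, summed over 7 probe sets, read 3566.5 to 3953.8 in BXH7, 12423.2 to 13941.9 in BXH8, 8877.5 to 11551.2 in BXH2 and 2236.1 to 5318.8 in BXH10, and 3 of 5 tested passed among the RI strains. Squamous epithelium genes, summed over 9 probe sets, read 689.6 to 1162.3 in BXH7 and 6284.3 to 17185.9 in BXH8, and 0 of 5 tested passed (1 at an unadjusted p below 0.05). These adipose and squamous counts stand beside 9.06% of all tested probe sets. With the muscle list as a covariate, the range was 1.32 for Alas2 (adjusted p = 0.136) and 0.55 for Fech (adjusted p = 0.119). The erythroid and muscle means themselves differed between strains, so these fits do not measure their part. The part of the erythroid, muscle, adipose and squamous genes in these differences was not tested.

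The Alas2 call ended in 19 of 38 alternatives, 12 of them leaving out a single array, and the Fech 1418699_s_at call in 8 of 38, 5 of them leaving out an array. For Alas2 these arrays were both of B6, BXH7, BXH8, BXH10 and BXH19, with BXH2 replicate 2 and BXH6 replicate 1 (adjusted p from 0.0531 to 0.104). For Fech they were BXH2 replicate 1 and both of BXH7 and BXH8 (adjusted p from 0.051 to 0.0718). Alas2 also ended with the replicate number as a block (adjusted p = 0.0503).

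**Figure D3:**
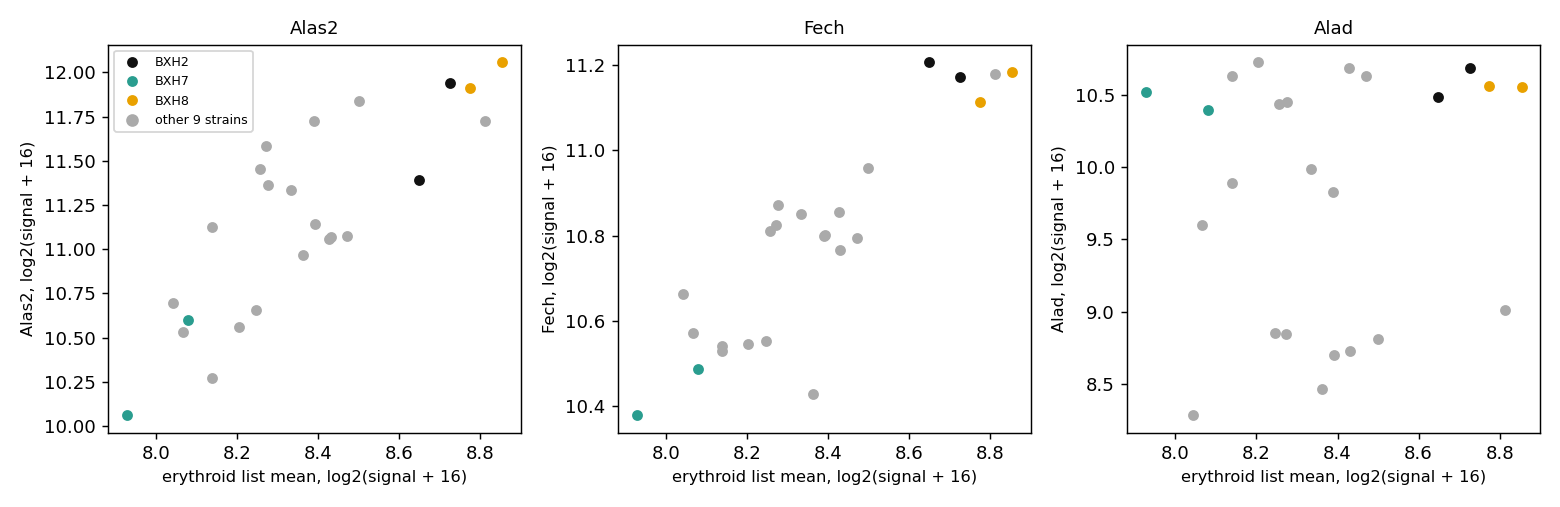
Alas2, Fech 1418699_s_at and Alad against the mean of 9 tested erythroid genes, all as log2(signal + 16), on each of the 24 arrays; BXH2, BXH7 and BXH8 are coloured and the arrays of the other 9 strains are grey. Alas2 (r = 0.82) and Fech (r = 0.89) line up with the erythroid mean, with BXH7 at the lower left and BXH8 at the upper right, and Alad (r = 0.10) does not.

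Over the 9 RI strain means, the gene most like Alas2 was Fech and the gene most like Fech was Alas2 (r = 0.96). Next for Alas2 came Arpc1a and Ctc1 (both 0.94), and next for Fech came Galns (0.95) and Phf13 (0.93), none of which passed among the RI strains.

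Hebp1 read 120.7 and 167.9 in B6 and 619.6 and 499.1 in C3, with no overlap. The difference of C3 minus B6 was 1.85 (SE 0.34, 95% interval 1.14 to 2.56). Without B6 replicate 1 or without C3 replicate 1, Hebp1 was no longer called between the progenitors, which left 1 of the 13 member probe sets. F1 read 454.2 and 515.3, overlapping C3. It lay above the progenitor mean by 0.73 (95% interval 0.12 to 1.34, unadjusted p = 0.0222 and adjusted p = 0.601 by limma).

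Among the RI strains Hebp1 had the widest range of any member probe set, 3.36 on the log2 scale (limma moderated F = 26.3, adjusted p = 4.61e-06), and 2.66 with an offset of 64 in place of 16. BXH8 read 692.2 and 673.8, BXH14 read 625 and 462.5, and BXH6 read 496.3 and 526.3, all above both B6 arrays and overlapping C3 or above it. BXH7 read 306 and 207.5, BXH19 read 218.8 and 197.5, and BXH2 read 182.3 and 186.9, between the progenitors. BXH9 read 107.1 and 183.9, around B6.

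BXH4 read 38 and 77.6 and BXH10 read 28.2 and 88.3, and both strains were below every array of all other strains. Their differences from B6 were -1.16 in BXH4 (95% interval -1.87 to -0.45) and -1.22 in BXH10 (95% interval -1.93 to -0.52). Hebp1 passed the signal filter, which used the mean of the log2 values over all arrays. Its mean linear signal was 319.79, and 4 strains, B6, BXH4, BXH9 and BXH10, had means under 169.3. Against the other 8 RI strains it passed in BXH4 (-1.91, limma adjusted p = 1.90e-04), BXH6 (1.34, adjusted p = 0.00772), BXH8 (1.80, adjusted p = 6.04e-04), BXH10 (-1.99, adjusted p = 1.59e-04) and BXH14 (1.42, adjusted p = 0.00506), with an SE of 0.25.

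The strains carried Alad and Hebp1 in different combinations. BXH14 was near B6 in Alad (position 0.14) and near C3 in Hebp1 (0.97). BXH9 was near C3 in Alad (0.99) and near B6 in Hebp1 (-0.01), and BXH2 had positions of 1.01 and 0.18. BXH6 and BXH8 were near C3 or above in both. BXH10 was low in both, with positions of 0.17 for Alad and -0.66 for Hebp1.

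Around Hebp1, 4 of the 20 nearest genes had a tested probe set (Gpr19, Cdkn1b, Ddx47 and Fam234b) and none differed among the RI strains (adjusted p from 0.315 to 0.474 by limma). The genes most like Hebp1 over the 9 RI strain means were Slc66a2 (r = 0.95), 1700123O20Rik (0.92), Cops6 (0.90), Cct7 (0.90) and Fam32a (0.90). None of these 5 passed among the RI strains.

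**Figure D4:**
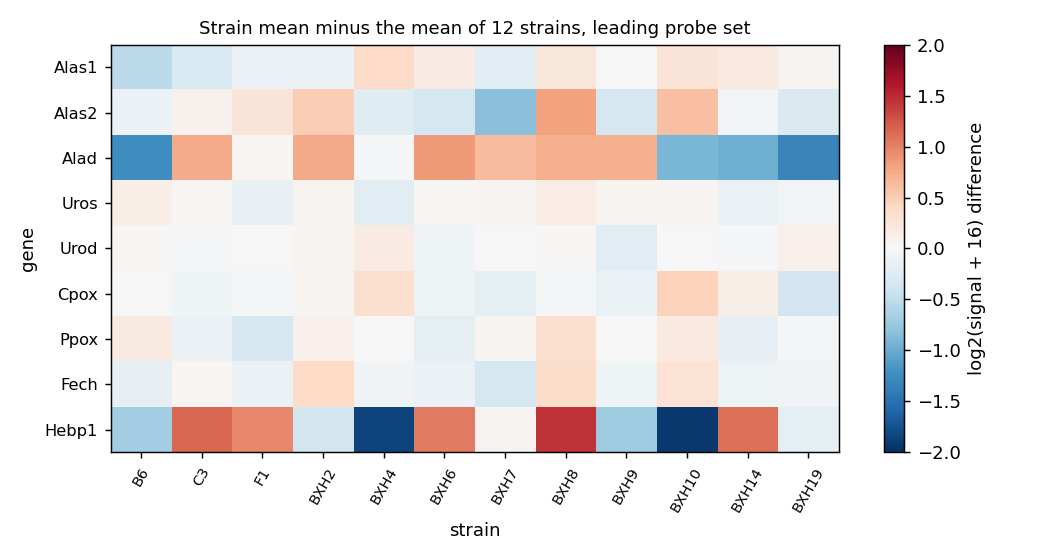
Mean log2(signal + 16) of each strain minus the mean of the 12 strains, for the brightest probe set of each of the 9 genes in pathway order; red is above and blue below that mean, with 2 arrays per strain. Alad runs from -1.32 to 0.86 and Hebp1 from -1.92 to 1.44, Alas2 from -0.84 to 0.81 and Fech from -0.35 to 0.40, while Uros and Urod stay between -0.23 and 0.17.

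Genes that feed the chain or use its product were counted on the same tests, each by its brightest probe set. Of 18 tested genes of mitochondrial supply and iron uptake, 0 differed between C3 and B6 and 2 differed among the RI strains by limma. Over all tested probe sets the shares were 1.73% and 9.06%, so neither count here, nor those of the next lists, is read as a result about its list. The genes called were Slc25a37, the mitochondrial iron importer mitoferrin (range 0.87, adjusted p = 0.00796, highest in BXH2 and lowest in BXH7, as for Fech), and Tfrc, the transferrin receptor (0.60, adjusted p = 0.0118). Steap3, a ferrireductase, had a wider range of 2.48 that missed the threshold (adjusted p = 0.0526), and C3 minus B6 was 1.57 (adjusted p = 0.149).

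Of 11 tested genes of haem breakdown, binding and transport, 0 differed between the progenitors and 1 differed among the RI strains, beside 1.73% and 9.06% of all tested probe sets. That gene was the haem oxygenase Hmox2 (range 0.83, limma adjusted p = 0.0239, highest in BXH2 and lowest in BXH4). Of 8 tested regulators that sense haem or iron, 0 were called in either comparison. Of 19 tested haemoproteins, 0 differed between the progenitors and 3 among the RI strains: Cycs, or cytochrome c (0.92, adjusted p = 0.0134), the neutrophil enzyme Mpo (1.27, adjusted p = 0.0337) and Cyc1, or cytochrome c1 (0.85, adjusted p = 0.0448). Cyp1a1 gave -1.48 for C3 minus B6 and did not pass (adjusted p = 0.119). At an unadjusted p below 0.05, the counts for C3 minus B6 were 3 for supply and iron uptake, 0 for breakdown and transport, 0 for regulators and 2 for haemoproteins, and 1 regulator differed among the RI strains. By the same measure, 1224 of all tested probe sets differed between C3 and B6 and 3402 among the RI strains.

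The median C3 minus B6 difference was 0.20 over the 9 members by brightest probe set, 0.11 over supply and iron uptake, 0.09 over breakdown and transport, -0.04 over regulators and -0.05 over haemoproteins, beside -0.0012 over all tested probe sets. The median range among the RI strains was 0.75, 0.46, 0.66, 0.43 and 0.55 in the same order, beside 0.52 over all. None of the genes of these lists was called by limma for F1 against the progenitor mean, and the counts at an unadjusted p below 0.05 were 2, 0, 4, 0 and 3 in that order.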

How the data were processed

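Linear signal intensities of 22690 probe sets on 24 arrays were used as the authors deposited them. Per the labels' protocols, Trizol was used for the RNA, T7-oligo(dT) for cDNA synthesis and biotin as the label. The software, scaling and genome build behind the signals were not given in the sources used here. Signals were turned into log2(signal + 16). Controls (64 probe sets) and probe sets outside the top 60% by the mean of these log2 values were left out. The remaining 13576 were fitted with limma 3.58.1 in R 4.3.3 (12 strains as groups, 12 residual degrees of freedom, empirical Bayes with a mean-variance trend) and adjusted by Benjamini-Hochberg. The number of arrays limits the precision. The script was tested on simulated data.

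Gene symbols came from the platform annotation (20380 with 1 symbol, 691 with several). Promoter sequences and gene order come from RefSeq. The genes named are all members, tested genes within 10 places of Alad and Hebp1, up to 4 genes of smallest p per list and comparison, and the genes most like Alad and Hebp1 (5 each) and like the other members called among RI strains (3 each). Other lists of cell types served as checks. The members and lists were chosen with earlier results of these data known. The comparison of the RI mean with the progenitor mean and the erythroid covariate were chosen after seeing the data.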

Additional observations from a re-analysis of the deposited data

How the results depend on the processing

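The counts of member probe sets called were recomputed by limma under 38 alternatives (24 of them leaving out an array), and no result reversed. C3 minus B6 called 2, and 1 in the top 40% of probe sets, where 8 were tested. Leaving out an array gave 1 to 2. F1 minus the progenitor mean called 0 in each alternative. Between the RI strains 4 were called, 2 with the skeletal muscle list and 2 with the erythroid list as a covariate, and 2 to 4 on leaving out an array. The lowest count of 2 came without BXH7 replicate 1, without BXH8 replicate 1 and without BXH8 replicate 2. Each RI strain against the others gave 13 calls, 8 in the top 40% of probe sets, where Hebp1 was not tested, and 12 to 14 on leaving out an array. With the replicate number as a block the counts were 2, 0, 3 and 13. The numbers do not pair the samples: over 66 pairs of strains, the deviations correlated at -0.29 to 0.34 (median 0.0042). Alad and Hebp1 differed among the RI strains under every alternative in which they were tested.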

Other observations

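The RI mean of Alad exceeded the progenitor mean by 0.30 on the log2 scale (95% interval 0.12 to 0.49) and did not pass (limma adjusted p = 0.111), but it did with the skeletal muscle list as a covariate (0.37, adjusted p = 0.0402). For Hebp1 the same comparison, added after the data were seen, gave -0.38 (adjusted p = 0.396).

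The clock genes called higher in C3 than in B6 were Nr1d2 (1.53), Bhlhe40 (1.11), Dbp (1.10) and Nr1d1 (1.68), and the erythroid regulators Gata1 and Klf1 read 77.4 to 222.8 and 62.4 to 222.5 over the 24 arrays.

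Among the RI strains, limma called 6 of 10 tested alveolar macrophage genes, 8 of 12 skeletal muscle genes, 1 of 8 alveolar type 2 cell genes (Abca3), 0 of 4 club and ciliated cell genes, 1 of 8 endothelial genes (Tek) and 1 of 5 lymphoid genes (Cd79b), beside 9.06% of all tested probe sets. Between C3 and B6, where 1.73% of all tested probe sets were called, 1 of the 5 lymphoid genes was (Jchain, 2.49). In that comparison 0 of the muscle, adipose, squamous, erythroid, type 2, club and endothelial genes were called. At an unadjusted p below 0.05, the latter counts were 2, 1, 4, 1, 0, 0 and 0 in that order, and 0 of the club and ciliated cell genes among the RI strains.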
